A study of Rattus norvegicus with 8 samples.

Results

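Genes for matrix metalloproteinases (MMPs), disintegrin metalloproteinases (ADAMs), ADAMs with thrombospondin motifs (ADAMTS and ADAMTS-like) and tissue inhibitors of metalloproteinases (TIMPs) were followed in rat lung during hypobaric hypoxia. They were chosen by the gene name printed in the array files, which selected 66 genes with 75 probes, and a gene was retained if, on 4 or more of the 8 arrays, the green or the red signal of a probe was marked as well above background. This left 43 genes with 50 probes, among 24143 genes measured in all. The 43 genes were 3 TIMP, 16 MMP, 10 ADAM, 11 ADAMTS and 3 ADAMTS-like genes.

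Rats received cobalt (12.5 mg per kg body weight) or normal saline for 7 days followed by hypobaric hypoxia equal to 30000 ft, lasting 6, 12, 24 or 48 h. The groups were cobalt with 6, 12, 24 and 48 h of hypoxia and saline with the same 4 durations, 1 two-colour array each, and the other channel of each array held 0 h RNA from rats with the same pretreatment. Every rat, the 0 h animals included, had thus been given cobalt or saline. Strain, sex, age and the number of animals behind each RNA were not given in the sources used here.

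MMPs are zinc proteases that cut collagens, laminins, elastin and other matrix proteins and are made as inactive precursors. ADAMs sit in the cell membrane and release the outer parts of receptors, adhesion molecules and growth factors, whereas ADAMTS proteins are secreted and cut proteoglycans, procollagens or von Willebrand factor. TIMPs bind the active site of MMPs, and Timp3 also inhibits several ADAM and ADAMTS proteins. In lung these proteins are known for alveolar development, emphysema, fibrosis and remodelling of the vessel wall.

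Values are log2 ratios of hypoxia over 0 h, in the order 6, 12, 24 and 48 h, and estimates are limma means ± SE with Benjamini-Hochberg adjusted p-values over all 24143 genes, called under 0.05. Hypoxia RNA was in Cy3 (green) on the cobalt arrays (slide 2) and in Cy5 (red) on the saline arrays (slide 1). Pretreatment thus cannot be told apart from slide, scan or dye orientation, and the spread of the 0 h RNA, shared by the 4 arrays of a pretreatment, enters no p-value. Because labels name no separate animals for each array, p-values measure only the spread between arrays and durations, and with 1 array per group the 8 arrays limit the precision. The green channel had 57.7% to 67.2% of spots well above background and the red channel 63.5% to 72.7%. Over all genes, log ratios correlated at 0.41 to 0.75 between cobalt arrays, at 0.56 to 0.70 between saline arrays and at -0.10 to 0.27 between a cobalt and a saline array. Markers of lung were present, with all 11 alveolar epithelial and all 9 airway epithelial genes of the lists above the filter.

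The 23 genes left out for dim signal were Mmp1, Mmp3, Mmp7, Mmp10, Mmp20, Mmp21, Mmp27, Adam2, Adam3a, Adam5, Adam6, Adam11, Adam18, Adam23, Adam24, Adam32, Adam34, Adamts3, Adamts4, Adamts6, Adamts16, Adamts20 and Adamtsl1. Just outside the limit, Adam23 and Adamts3 were well above background on 3 arrays. Just inside it, Adamts17 was so on 4 arrays and Adam7 on 5, and 38 of the 43 genes were so on all 8. Timp4, Adamts2, Adam12 and Adam19 were not analysed here.

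Averaged over both pretreatments, 18 of the 43 genes (41.9%) differed between hypoxia and 0 h, 10 higher and 8 lower, against 31.9% of all genes called (15.7% higher, 16.3% lower). The members' median was 0.04, against -0.00 over all genes, so they did not lean one way as a group. The highest averages belonged to Timp1, Adamts1, Mmp23, Adamts9, Adam15 and Mmp24, and the lowest to Adamts13, Mmp16, Adamtsl4, Adam17, Mmp2 and Adamts14. A dye effect common to both slides cancels in this average. Log ratios were above 0 on all 8 arrays for 3 members, Timp1, Adamts1 and Adam15, against 6.76% of all genes, and below 0 on all 8 for another 3, Adamts13, Mmp16 and Adamtsl4, against 6.08%. With median centring in place of loess, Adamts1 and Adamts13 kept their sign on all 8 arrays and the other 4 genes did not.

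**Figure D1:**
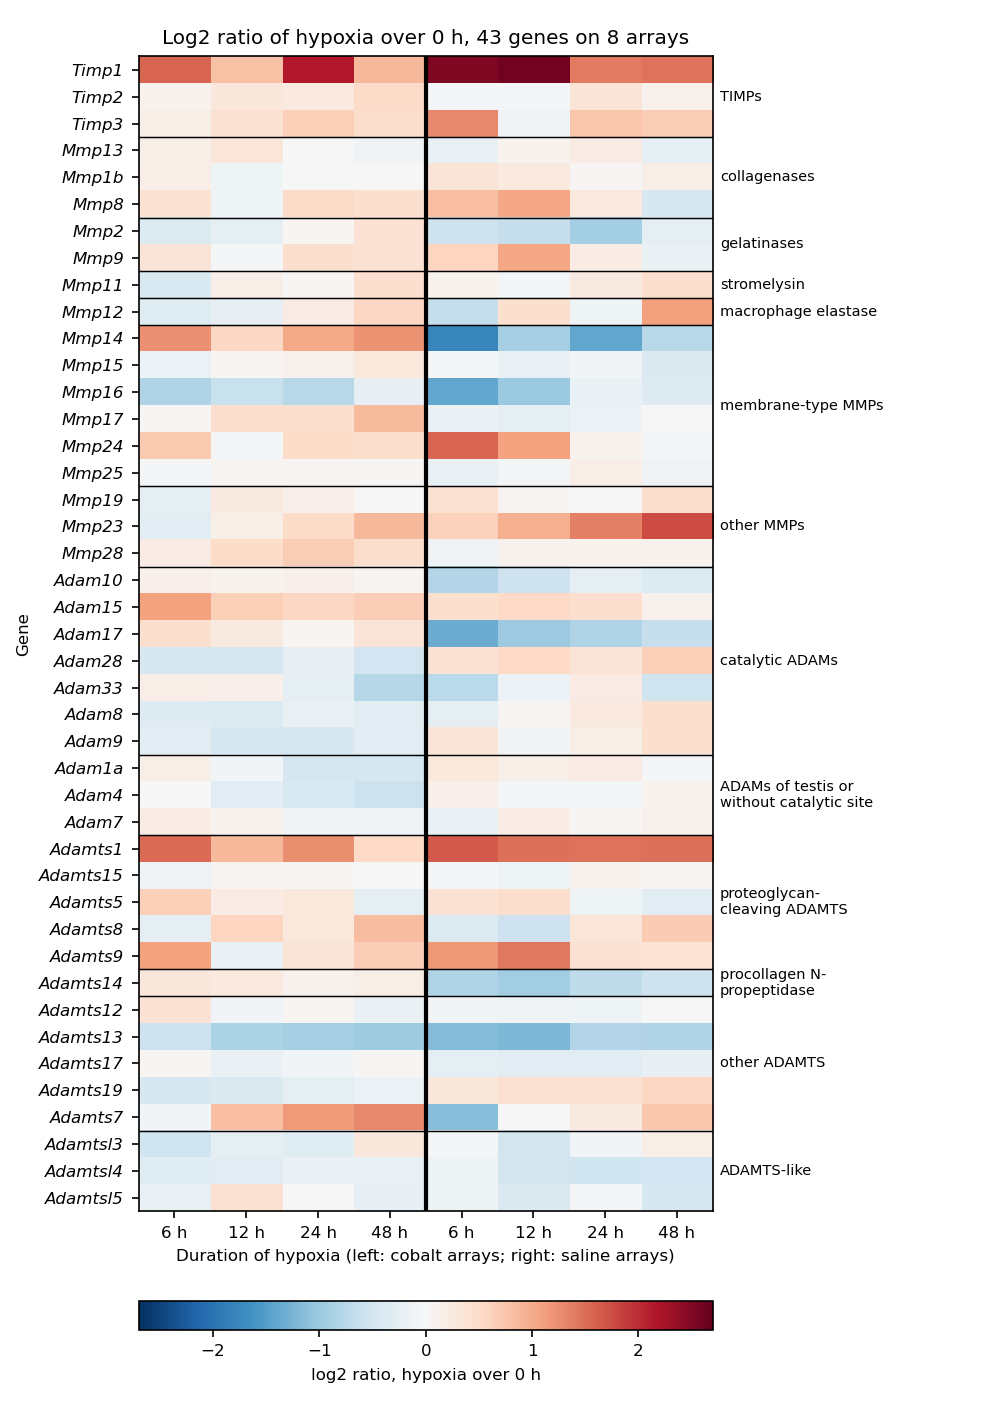
Heat map of the log2 ratio of hypoxia over 0 h for the 43 genes (rows, grouped by role) on the 4 cobalt arrays (left) and the 4 saline arrays (right), with duration on the horizontal axis and red for higher and blue for lower in hypoxia. Timp1 and Adamts1 are red and Adamts13 is blue on all 8 arrays, whereas Mmp14 is red on cobalt and blue on saline arrays.

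**Figure D2:**
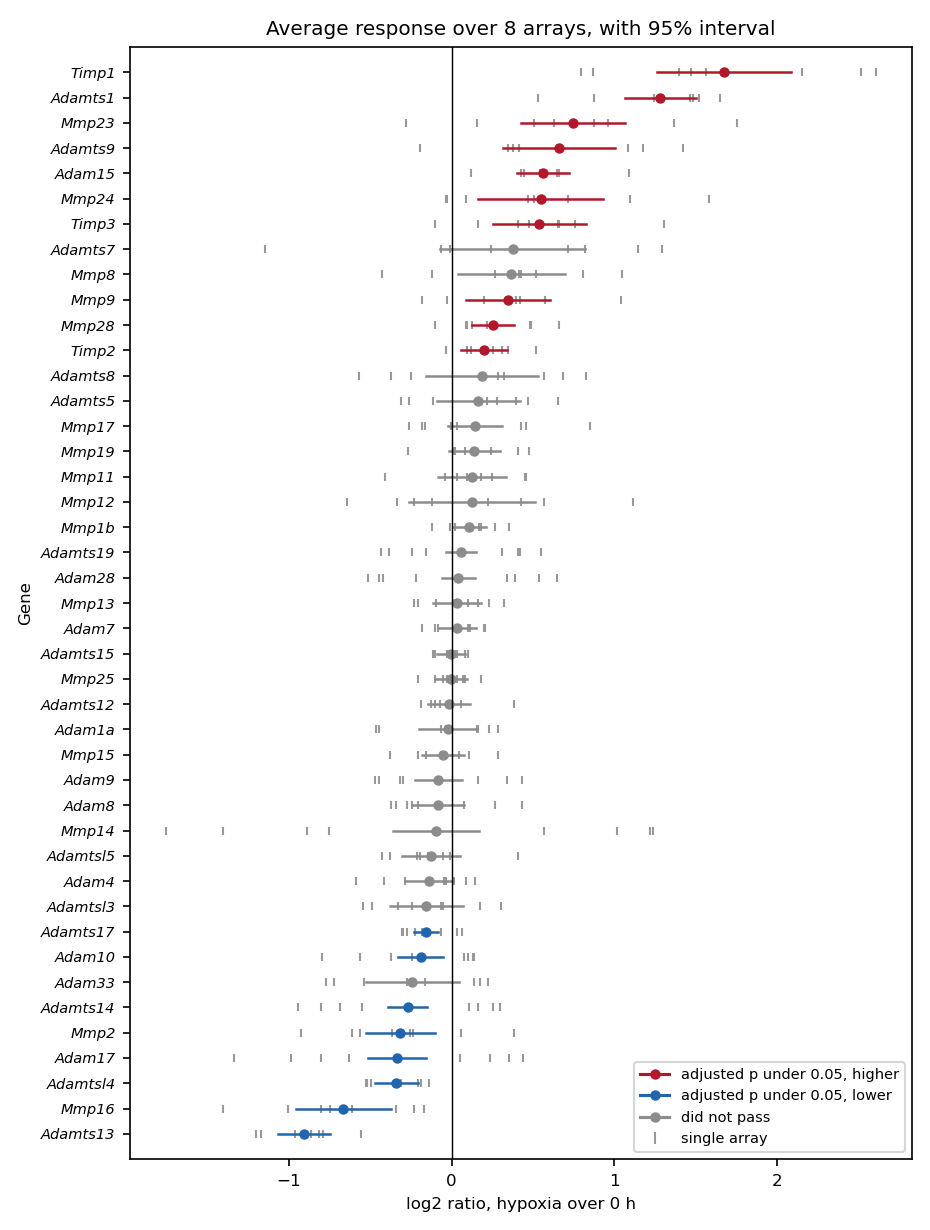
Average log2 ratio of hypoxia over 0 h (points) with its 95% interval (lines) for each of the 43 genes, with the 8 single arrays as grey ticks. The 10 genes called higher are red, the 8 called lower are blue, and the ticks of Mmp14 lie in separate clusters on both sides of 0.

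Timp1 and Timp3 were higher in hypoxia in the average, Timp1 by far the most, and Timp2 passed the test on a saturated signal. Timp1, which encodes a secreted inhibitor of most MMPs and is also a growth-promoting cytokine, had log2 ratios of 1.57, 0.79, 2.15 and 0.87 on cobalt arrays and of 2.52, 2.61, 1.40 and 1.47 on saline arrays. Hypoxia RNA gave the higher signal on every array, and the ranges of the pretreatments overlapped. Its average was 1.67 ± 0.18, or 3.19-fold (adjusted p = 0.00029, limma), with 1.35 in cobalt rats (adjusted p = 0.0071) and 2.00 in saline rats (adjusted p = 0.00044). The cobalt minus saline difference, -0.65 ± 0.37, did not pass (adjusted p = 0.21). With median centring in place of loess it was -2.85 (adjusted p = 5.2e-05), where the median of all genes was -0.78.

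The Timp1 probe is spotted 10 times on each array, and those spots agreed to an SD of 0.026 to 0.093 on the log2 scale. Such spots measure the error within an array only, not the spread between RNA samples. At 24 h the cobalt array stood above the saline array, and at 6, 12 and 48 h it stood below it. Replacing loess by median centring left the average at 1.67 but gave -0.40 on the cobalt array of 12 h and -0.18 on that of 48 h. The probe is shown because the highest of the averages given here rests on it. In an alternative setting the average of Adamts1 reached 1.96, above that of Timp1. Per the file headers its place is on the rn3 build, chrX:12548256-12549259, where the 60 bases lie across 1004 bases of genome.
Timp1 probe: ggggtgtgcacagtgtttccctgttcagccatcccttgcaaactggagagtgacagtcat

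The 250 bases before the Timp1 start in RefSeq (GRCr8, chrX:3771123-3771372, minus strand) are shown because Timp1 and Adamts13, the genes with the highest and the lowest average, share a short match there. Capitals mark TGAGTAA, a variant of the AP-1 site, whose first base lies at -108 from the start.
Timp1 upstream: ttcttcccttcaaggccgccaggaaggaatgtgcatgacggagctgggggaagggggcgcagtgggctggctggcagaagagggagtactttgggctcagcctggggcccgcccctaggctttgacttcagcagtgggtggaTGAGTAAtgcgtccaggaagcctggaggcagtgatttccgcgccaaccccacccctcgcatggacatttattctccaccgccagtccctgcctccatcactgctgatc

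Of the 43 genes, 29 matched a promoter in the RefSeq table. TGAGTAA, searched on both strands and chosen after the sequence had been seen, occurred in 2 of the 29, Timp1 and Adamts13, and in 2.25% of all 27457 promoters. The AP-1 consensus TGANTCA occurred in 2 of 29, Mmp12 and Mmp13, and in 6.36% of all. The core of the hypoxia response element, ACGTG on either strand, occurred in 7 of 29 (Adam1a, Adam10, Adamts17, Mmp1b, Mmp12, Mmp13 and Mmp15), or 24.1%, and in 16.9% of all. No place can match both TGANTCA and TGAGTAA on the same strand, and a match is not a bound site.

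Timp3, the inhibitor that stays bound to matrix, had ratios of 0.16, 0.41, 0.65 and 0.48 on cobalt arrays and of 1.30, -0.10, 0.76 and 0.66 on saline arrays, with an average of 0.54 ± 0.13 (adjusted p = 0.011). It was higher on 7 arrays and the pretreatments overlapped; with median centring the average was 0.33 and did not pass (adjusted p = 0.099). Timp2, which together with Mmp14 takes part in the activation of pro-Mmp2, had ratios of 0.10, 0.31, 0.25 and 0.52 on cobalt arrays and of -0.03, -0.03, 0.35 and 0.12 on saline arrays, with an average of 0.20 ± 0.06 (adjusted p = 0.040). Its red signal was saturated on all 8 arrays and its green signal on 0, so the saline ratios are lower limits and the cobalt ratios upper limits, and their average, counted among the 10 higher calls, has no measured size or direction. Leaving out 1 of 5 arrays in turn (cobalt 12, 24 or 48 h, saline 24 or 48 h) gave 0.16 to 0.20 and ended the call (adjusted p = 0.071 to 0.10).

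The gelatinases, which cut denatured collagen and type IV collagen of basement membranes, moved apart. Mmp9, stored in neutrophil granules and made by macrophages, had ratios of 0.34, -0.03, 0.42 and 0.39 on cobalt arrays and of 0.57, 1.04, 0.20 and -0.18 on saline arrays, an average of 0.35 ± 0.12 (adjusted p = 0.045). Mmp2, made chiefly by fibroblasts and other mesenchymal cells, had -0.36, -0.24, 0.06 and 0.38 on cobalt arrays and -0.56, -0.61, -0.93 and -0.25 on saline arrays, an average of -0.32 ± 0.09 (adjusted p = 0.029). Its saline arrays were all below 0 (mean -0.59, adjusted p = 0.0069), while the cobalt arrays lay on both sides of 0 (mean -0.04, adjusted p = 0.86), and the difference, 0.55 ± 0.19, did not pass (adjusted p = 0.052).

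Both gelatinase calls were close to the threshold. Mmp9's was lost without any 1 of 6 arrays (all but cobalt 12 h and saline 48 h), with averages of 0.24 to 0.38 and adjusted p-values of 0.056 to 0.11. Mmp2's was lost without cobalt 6, 12 or 24 h or saline 12 or 24 h, with averages of -0.33 to -0.26 and adjusted p-values of 0.055 to 0.081. A second Mmp2 probe followed the first on cobalt arrays, with a mean of -0.06, but gave -0.18 in place of -0.59 on saline arrays. Replicate spots had SDs of 0.056 to 0.15 for Mmp9 and 0.034 to 0.066 for Mmp2.

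None of the 3 measured collagenases, which cut fibrillar collagen, was called in the average. Mmp8, the neutrophil collagenase, had ratios of 0.42, -0.12, 0.52 and 0.43 on cobalt arrays and of 0.81, 1.05, 0.27 and -0.43 on saline arrays, an average of 0.37 ± 0.15 (adjusted p = 0.084). Mmp13 had 0.16, 0.32, 0.01 and -0.09 on cobalt arrays and -0.21, 0.10, 0.23 and -0.23 on saline arrays, an average of 0.04 ± 0.07 (adjusted p = 0.71). Mmp1b, a rodent relative of interstitial collagenase, had 0.18, -0.12, 0.02 and -0.01 on cobalt arrays and 0.35, 0.27, 0.02 and 0.17 on saline arrays, an average of 0.11 ± 0.05 (adjusted p = 0.091). The saline mean of Mmp1b alone, 0.20, passed (adjusted p = 0.031, limma), but dye does not cancel in it. Mmp1b was also dim, well above background on 6 arrays.

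Mmp8 and Mmp9, both proteases of neutrophil granules, had a like order of arrays, highest on saline 12 h and lowest on saline 48 h. S100a8 and S100a9, the calprotectin genes, were picked for this comparison after their values were seen and outside the naming rule. Their likeness to Mmp8 and Mmp9 is thus no support for a shared course. S100a8 gave 0.65, -0.25, 1.11 and 0.64 on cobalt arrays and 0.57, 1.70, -0.50 and -1.90 on saline arrays, and S100a9 gave 0.69, 0.01, 0.79 and 0.43 on cobalt arrays and 0.37, 1.56, -0.30 and -1.70 on saline arrays. Of 9 measured neutrophil markers, 0 were called higher and 2 lower in the average, the receptor gene Csf3r (-0.32) and Ncf1 (-0.32). The median of the 9 was 0.23, -0.20, 0.48 and 0.03 on cobalt arrays and -0.15, 0.85, -0.43 and -0.54 on saline arrays. Their part in the Mmp8 and Mmp9 ratios was not tested. In whole lung, fewer cells of a type and less RNA per cell cannot be told apart.
Mmp8 probe (rn3, chr8:4410891-4410950): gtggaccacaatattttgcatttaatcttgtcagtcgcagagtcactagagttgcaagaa
Mmp9 probe (rn3, chr3:155898499-155898558): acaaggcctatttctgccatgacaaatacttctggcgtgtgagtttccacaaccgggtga
The sequences of these 2 probes are shown because the pair followed a like course while being separate genes on separate chromosomes.

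Mmp12, the macrophage elastase, had ratios of -0.34, -0.23, 0.23 and 0.57 on cobalt arrays and of -0.64, 0.43, -0.12 and 1.12 on saline arrays, highest at 48 h in both pretreatments. Its average of 0.13 ± 0.17 did not pass (adjusted p = 0.61). Of 10 macrophage markers, 3 were called higher and 2 lower, among them Chi3l1 (0.76), Fabp4 (0.75), Csf1r (-0.60) and Adgre1 (-0.59), with a list median of 0.01. Mmp11, the stromelysin whose product is activated inside the cell by furin, had -0.41, 0.18, 0.03 and 0.45 on cobalt arrays and 0.10, -0.04, 0.25 and 0.46 on saline arrays, an average of 0.13 ± 0.09 (adjusted p = 0.33).

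Mmp8, Mmp12, Mmp13 and Mmp1b lie in a run of 10 MMP genes of the array on chromosome 8 (rn3, chr8:4168554-4533706, 365 kb between outer probes). The other genes of that run, Mmp1, Mmp3, Mmp7, Mmp10, Mmp20 and Mmp27, were too dim. None of the 4 measured genes of the run was called in the average. The probes of Adamts1 and Adamts5 span 69.5 kb on chromosome 11 (rn3, chr11:25434208-25503722), with an average of 1.28 ± 0.10 for Adamts1 and of 0.16 ± 0.11 for Adamts5 (adjusted p = 0.30), a gene given here because of its place and chosen after its values were seen. Adamts8 and Adamts15 lie together on chromosome 8 (chr8:30695281-30751763), and neither was called.

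The 6 membrane-type MMPs, which are anchored in the cell surface, showed 1 higher, 1 lower and 4 uncalled averages. Mmp16 had ratios of -0.80, -0.61, -0.75 and -0.23 on cobalt arrays and of -1.41, -1.01, -0.17 and -0.34 on saline arrays, below 0 on every array. Its average was -0.66 ± 0.13, or 1.59-fold lower (adjusted p = 0.0047). A second, dimmer probe of Mmp16 gave an average of -0.12, with 1 of its 8 arrays above 0. Mmp24, best known from brain, had 0.71, -0.04, 0.51 and 0.47 on cobalt arrays and 1.58, 1.10, 0.09 and -0.03 on saline arrays, an average of 0.55 ± 0.17 (adjusted p = 0.035). Without cobalt 6, 24 or 48 h or saline 6 or 12 h the Mmp24 call was lost (averages of 0.40 to 0.54, adjusted p = 0.063 to 0.086).

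Mmp14, the main activator of pro-Mmp2 on the cell surface, had the widest gap between pretreatments among the 43 genes. Its ratios were 1.24, 0.57, 1.02 and 1.22 on cobalt arrays and -1.76, -0.89, -1.41 and -0.75 on saline arrays. The groups did not overlap, and their average of -0.10 ± 0.12 did not pass (adjusted p = 0.57). Mmp17 had 0.03, 0.46, 0.43 and 0.85 on cobalt arrays and -0.18, -0.26, -0.16 and -0.01 on saline arrays, an average of 0.14 ± 0.07 (adjusted p = 0.16). Mmp17 was dim, with a red signal well above background on 5 arrays and a green signal on 7.

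Mmp15 and Mmp25 stayed near 0. Mmp15 had ratios of -0.15, 0.04, 0.11 and 0.28 on cobalt arrays and of -0.04, -0.21, -0.07 and -0.38 on saline arrays, an average of -0.05 ± 0.06 (adjusted p = 0.52). Mmp25, known from leukocytes, had -0.05, 0.07, 0.08 and 0.03 on cobalt arrays and -0.21, -0.03, 0.18 and -0.10 on saline arrays, an average of -0.00 ± 0.04 (adjusted p = 0.97).

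Of the remaining MMPs, Mmp23 and Mmp28 were called higher. Mmp23, a membrane protein whose product lacks the hemopexin domain of most MMPs, had ratios of -0.28, 0.15, 0.51 and 0.88 on cobalt arrays and of 0.63, 0.96, 1.37 and 1.75 on saline arrays, an average of 0.75 ± 0.14, or 1.68-fold (adjusted p = 0.0041). It was higher at each longer duration in both pretreatments. Mmp28, epilysin, which epithelial cells make, had 0.22, 0.49, 0.66 and 0.48 on cobalt arrays and -0.10, 0.12, 0.09 and 0.09 on saline arrays, an average of 0.26 ± 0.06 (adjusted p = 0.0084). Mmp19 had -0.27, 0.24, 0.15 and 0.01 on cobalt arrays and 0.41, 0.08, 0.02 and 0.48 on saline arrays, an average of 0.14 ± 0.07 (adjusted p = 0.15).

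Among the 10 ADAM genes, 1 was called higher and 2 lower. Adam15, found on endothelial and other adherent cells, had ratios of 1.09, 0.65, 0.55 and 0.66 on cobalt arrays and of 0.43, 0.55, 0.44 and 0.12 on saline arrays, above 0 on every array. With median centring its ratios on cobalt arrays were -0.02, -0.67, -0.66 and -0.49. Its average was 0.56 ± 0.07, or 1.48-fold (adjusted p = 0.00062). Adam17, the sheddase that releases TNF and ligands of the EGF receptor, had 0.44, 0.24, 0.05 and 0.35 on cobalt arrays and -1.34, -0.98, -0.80 and -0.63 on saline arrays, an average of -0.33 ± 0.08 (adjusted p = 0.012). That average combines cobalt ratios that were all above 0 with saline ratios that were all below it.

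Adam10, the sheddase of Notch and cadherins, showed a like split on its brightest probe. Its ratios were 0.13, 0.10, 0.14 and 0.08 on cobalt arrays and -0.80, -0.56, -0.24 and -0.37 on saline arrays, an average of -0.19 ± 0.06 (adjusted p = 0.043). The call was lost without any 1 of 6 arrays (all but saline 24 h and saline 48 h), with averages of -0.20 to -0.14 and adjusted p-values of 0.072 to 0.093. The other Adam10 probes averaged -0.18 and -0.05. Their means were -0.12 and -0.06 on cobalt arrays and -0.24 and -0.03 on saline arrays, so they did not show the split. Adam1a, Adam4, Adam7 and Adam33 had single ratios between -0.77 and 0.28 and averages between -0.24 and 0.04, and none of these averages was called. Adam4 was called lower in cobalt rats alone (-0.32, adjusted p = 0.037).

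Of the 11 ADAMTS genes, 2 were called higher and 3 lower. Adamts1, which cuts aggrecan and versican and is known to be induced by hypoxia in endothelial cells, had ratios of 1.52, 0.88, 1.25 and 0.53 on cobalt arrays and of 1.65, 1.48, 1.47 and 1.48 on saline arrays. The saline arrays lay close together, the ratios were above 0 on all 8 arrays and also with median centring, and the average was 1.28 ± 0.10, or 2.43-fold (adjusted p = 4.1e-05). Adamts9, a secreted versican-cutting protease, had 1.08, -0.20, 0.35 and 0.66 on cobalt arrays and 1.18, 1.42, 0.42 and 0.38 on saline arrays, an average of 0.66 ± 0.15, or 1.58-fold (adjusted p = 0.010).

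Adamts13, which cuts von Willebrand factor and thereby limits platelet clumping, had the lowest average. Its ratios were -0.56, -0.86, -0.90 and -0.96 on cobalt arrays and -1.17, -1.20, -0.79 and -0.81 on saline arrays, below 0 on every array and also on every array with median centring. The average of -0.91 ± 0.07, or 1.87-fold lower, was called (adjusted p = 4.9e-05), as were the cobalt mean of -0.82 (adjusted p = 0.0011) and the saline mean of -0.99 (adjusted p = 0.00014). Among the 10 endothelial markers, 5 were lower and 0 higher in the average, among them Plvap (-1.67), Kdr (-0.58) and Tek (-0.52), and the list median ran from 0.04 to 0.18 on cobalt arrays and from -0.90 to -0.49 on saline arrays. Adamts13 is known chiefly from liver stellate cells and also from endothelium, and the part of the endothelial markers in its ratio was not tested.

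Adamts14, a procollagen N-propeptidase, had ratios of 0.30, 0.25, 0.11 and 0.16 on cobalt arrays and of -0.80, -0.94, -0.69 and -0.55 on saline arrays, an average of -0.27 ± 0.05 (adjusted p = 0.0045). As with Adam17, the average joins ratios of opposite sign. Adamts17 was dim, well above background on 4 arrays, and had 0.06, -0.18, -0.07 and 0.04 on cobalt arrays and -0.27, -0.30, -0.30 and -0.23 on saline arrays, an average of -0.16 ± 0.03 (adjusted p = 0.0073), which did not pass with median centring. Its hypoxia signal was well above background on 0 of 4 saline arrays, against 2 of 4 for 0 h. The saline ratio, fitted as 1.21-fold lower, is thus no measured size. Folds of this kind compare means of normalized log2 levels and are open to dye bias. Adamts7, which degrades cartilage oligomeric matrix protein, had -0.07, 0.82, 1.15 and 1.29 on cobalt arrays and -1.14, -0.01, 0.24 and 0.72 on saline arrays, an average of 0.37 ± 0.20 (adjusted p = 0.18).

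Adamts8 had ratios of -0.25, 0.57, 0.29 and 0.83 on cobalt arrays and of -0.37, -0.57, 0.32 and 0.68 on saline arrays, an average of 0.19 ± 0.15 (adjusted p = 0.38). Adamts5, Adamts12 and Adamts15 had single ratios between -0.31 and 0.65 and were not called. Of the ADAMTS-like genes, whose products resemble ADAMTS proteins but carry no protease domain, Adamtsl4, which is tied to fibrillin microfibrils, was lower. It had -0.34, -0.31, -0.19 and -0.21 on cobalt arrays and -0.14, -0.50, -0.53 and -0.52 on saline arrays, an average of -0.34 ± 0.06 (adjusted p = 0.0026).

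Adamtsl3 and Adamtsl5 were not called. Adamtsl3 had -0.54, -0.24, -0.33 and 0.30 on cobalt arrays and -0.06, -0.49, -0.07 and 0.18 on saline arrays, an average of -0.16 ± 0.10 (adjusted p = 0.26). Adamtsl5 had -0.19, 0.41, -0.01 and -0.21 on cobalt arrays and -0.14, -0.38, -0.05 and -0.43 on saline arrays, an average of -0.13 ± 0.08 (adjusted p = 0.26).

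Within each pretreatment, 13 of 43 genes were called in cobalt rats, 7 higher and 6 lower (20.8% of all genes called, 8.54% higher and 12.3% lower), and 19 in saline rats, 10 higher and 9 lower (40.1% of all genes called, 21.8% higher and 18.3% lower). The cobalt count fell to 8 without the cobalt array of 12 h or that of 24 h. Dye does not cancel in either of these comparisons.

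The series asks how cobalt pretreatment alters the response to hypoxia, and the cobalt minus saline difference was called for 12 of the 43 genes (27.9%), 7 higher and 5 lower in cobalt rats, against 30.1% of all genes (12.7% higher, 17.4% lower). The share was thus near the background. Signs were opposite between all 4 cobalt and all 4 saline arrays for 7 members, Mmp14, Mmp17, Adam10, Adam17, Adam28, Adamts14 and Adamts19, against 12.5% of all genes. Mmp14 differed by 2.21 ± 0.23 (adjusted p = 0.00030), with 1.01 in cobalt rats and -1.20 in saline rats, and Adam17 differed by 1.21 ± 0.16 (adjusted p = 0.00081), with 0.27 in cobalt rats and -0.94 in saline rats. The sheddase Adam10 differed by 0.61 ± 0.13 (adjusted p = 0.0065), Adamts14 by 0.95 ± 0.11 (adjusted p = 0.00036) and Mmp17 by 0.59 ± 0.15 (adjusted p = 0.014), each higher in cobalt rats.

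The direction of some of these differences depended on the normalization. With median centring in place of loess, Mmp14 differed by 0.20 (adjusted p = 0.49), Adam17 by -0.34 (adjusted p = 0.092) and Adam10 by -1.33 (adjusted p = 5.5e-06), while the median difference of all genes was -0.78. On that scale the Mmp14 ratios were 0.25, -0.62, -0.05 and 0.17 on cobalt arrays and -0.73, 0.00, -0.57 and 0.25 on saline arrays, and the groups overlapped. The calls of Adam28, Adamts14, Adamts19 and Mmp17 held in every alternative that gave a value, each left-out array included. The filter on both channels of all 8 arrays left out Adam28, Adamts19 and Mmp17. No alternative changed the dye orientation, so holding is no test of dye for any of these calls. By the design, the signs of all 7 members with opposite signs followed the dye. With loess, green was the higher channel on every array for Mmp14, Mmp17, Adam10, Adam17 and Adamts14. Red was the higher channel on every array for Adam28 and Adamts19. For Adam8, Adam9 and Adam10 the mean over probes ended the call.

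**Figure D3:**
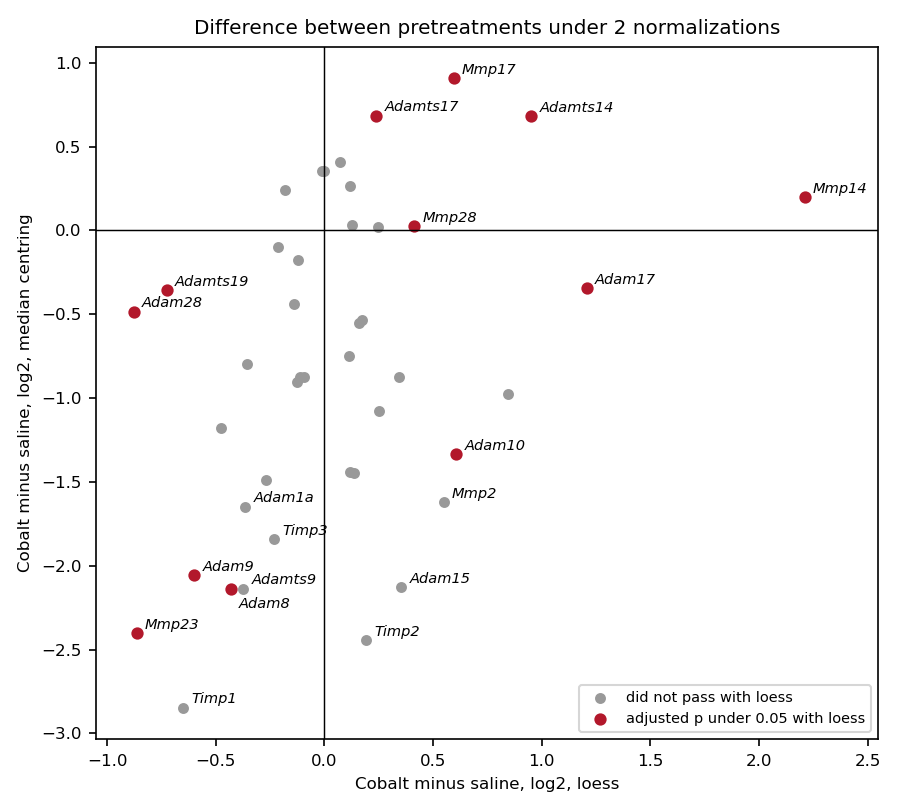
Cobalt minus saline difference of the log2 ratio for each of the 43 genes with loess (horizontal) and with median centring (vertical), red where the adjusted p with loess was under 0.05. Mmp14 moves to 0.20 and Adam10 and Adam17 fall below 0 on the vertical axis, while most genes lie below 0 there.

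Adam28, a leukocyte ADAM, and Adamts19 had opposite signs between pretreatments that followed the dye, as did those of the other members with opposite signs. For Adam28 the ratios were -0.42, -0.44, -0.22 and -0.51 on cobalt arrays and 0.39, 0.54, 0.34 and 0.65 on saline arrays, a fitted difference of -0.88 ± 0.09 (adjusted p = 0.00027). For Adamts19 they were -0.43, -0.38, -0.24 and -0.15 on cobalt arrays and 0.31, 0.41, 0.42 and 0.55 on saline arrays, a fitted difference of -0.73 ± 0.08 (adjusted p = 0.00039). In both, the red signal was well above background on 8 arrays, whichever RNA it carried, and the green signal on 0 arrays for Adam28 and 1 for Adamts19. Where the dim signal lay below the lowest level marked well above background, it was raised to that level. Hypoxia was then 1.25-fold lower in cobalt rats and 1.39-fold higher in saline rats for Adam28. For Adamts19 it was 1.20-fold lower in cobalt rats. These folds followed the dye, so they set no minimum for a change with hypoxia. The averages, 0.04 ± 0.05 and 0.06 ± 0.04, did not pass (adjusted p = 0.54 and 0.30).

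The probes of Adam28, Adam17 and Adamts14 are shown because the opposite signs rest on them. All 3 places are on the rn3 build, per the file headers.
Adam28 probe (chr15:49060722-49060781): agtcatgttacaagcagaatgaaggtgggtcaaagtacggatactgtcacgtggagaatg
Adam17 probe (chr6:41886418-41886477): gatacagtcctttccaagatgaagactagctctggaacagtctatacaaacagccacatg
Adamts14 probe (chr20:28576146-28576205): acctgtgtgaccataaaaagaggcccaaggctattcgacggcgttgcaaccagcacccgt

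Adam9, a widely made membrane protease, had ratios of -0.30, -0.47, -0.45 and -0.31 on cobalt arrays and of 0.34, -0.07, 0.16 and 0.43 on saline arrays, a difference of -0.60 ± 0.13 (adjusted p = 0.0076). A second Adam9 probe averaged -0.12 on cobalt arrays and -0.32 on saline arrays, the opposite order. Adam8, known from leukocytes and macrophages, had -0.34, -0.37, -0.21 and -0.28 on cobalt arrays and -0.24, 0.08, 0.26 and 0.43 on saline arrays, a difference of -0.43 ± 0.14 (adjusted p = 0.048) that was lost without any 1 array but saline 6 h (-0.46 to -0.33, adjusted p = 0.070 to 0.11). Its second probe averaged -0.15 in both pretreatments.

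Mmp23 differed by -0.86 ± 0.29 (adjusted p = 0.045), Mmp28 by 0.41 ± 0.11 (adjusted p = 0.023) and Adamts17 by 0.24 ± 0.07 (adjusted p = 0.025). The Mmp23 difference did not pass without cobalt 6, 12 or 24 h or saline 12, 24 or 48 h (-0.94 to -0.67, adjusted p = 0.057 to 0.11). Mmp28's did not pass without cobalt 12, 24 or 48 h (0.35 to 0.41, adjusted p = 0.051 to 0.073), and that of Adamts17 did not pass without cobalt 6, 24 or 48 h or saline 12 or 24 h (0.21 to 0.25, adjusted p = 0.052 to 0.066).

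With loess, the hypoxia response of cell type markers also differed between cobalt and saline arrays, where pretreatment cannot be told apart from slide, scan or dye orientation. The cobalt minus saline difference was called higher for 7 of 10 endothelial, 5 of 11 alveolar epithelial and 7 of 9 smooth muscle markers. It was called lower for 6 of 9 airway epithelial markers. Of all genes, 12.7% were called higher and 17.4% lower. The marker lists were not computed again with median centring, where the median difference of all genes was -0.78. No array compared cobalt with saline rats directly. The airway list had a median of -0.47 to -0.07 on cobalt arrays and of 0.82 to 1.62 on saline arrays. The part of these markers in the differences of the protease genes was not tested.

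By duration, no member was called for late minus early hypoxia (24 and 48 h against 6 and 12 h) and none of all 24143 genes was (0% called), with 8 members and 12.8% of all genes under an unadjusted p of 0.05. Dye, slide and 0 h RNA cancel in this comparison. Mmp23 had the smallest unadjusted p among members, with 0.76 ± 0.15 (unadjusted p = 0.00085, adjusted p = 0.28), and Adamts7 followed with 0.95 ± 0.27 (adjusted p = 0.29). The 3 members whose ratio was higher at each longer duration in both pretreatments were Mmp23, Adamts7 and Adamts19, against 1.30% of all genes. Of these, Adamts19 had a green signal well above background on only 1 of 8 arrays, so its ratios are no measured sizes. For 0 members, against 1.36% of all genes, the ratio was lower at each longer duration in both.

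Adamts8, with 0.68 ± 0.22, and Mmp16, with 0.58 ± 0.19, also had higher ratios late than early, and Adamts5, with -0.54 ± 0.16, had lower ones; none of these passed (adjusted p = 0.31, 0.31 and 0.29). Any difference between durations was called for 0 members and for 0.00828% of all genes, with 5 members and 8.18% of all genes under an unadjusted p of 0.05. Adamts7 (adjusted p = 0.18) and Mmp23 (adjusted p = 0.21) had the smallest values.

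**Figure D4:**
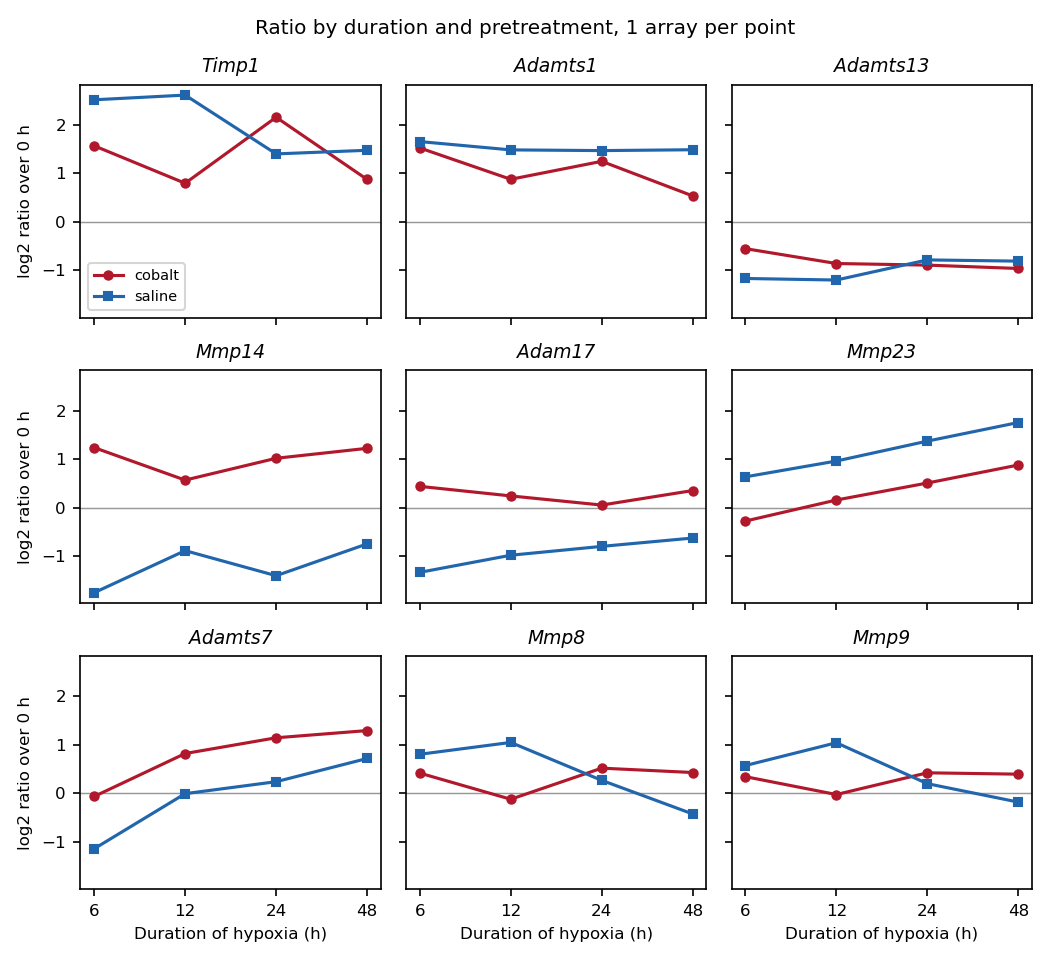
Log2 ratio of hypoxia over 0 h against duration (h, evenly spaced) for 9 genes, with cobalt arrays in red and saline arrays in blue, 1 array per point. Mmp23 and Adamts7 are higher at each longer duration in both pretreatments, and the Mmp14 and Adam17 lines of cobalt and saline rats lie on opposite sides of 0.

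The proteins that activate or inhibit metalloproteinases, listed apart from the TIMPs, held 7 higher and 2 lower averages among 18 measured genes, against 15.7% of all genes called higher and 16.3% called lower, with a median of 0.18 against -0.00 over all genes. The lists that follow are read against the same shares. The broad protease inhibitor A2m averaged 1.50 ± 0.42 (adjusted p = 0.021). Plau, urokinase, which starts plasmin-driven MMP activation, was lower, at -0.63 ± 0.13 (adjusted p = 0.0056), as was Reck, a membrane-bound MMP inhibitor, with -0.56 ± 0.12 (adjusted p = 0.0085).

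Of 18 matrix proteins that these proteases cut, 6 were higher and 1 was lower, with a median of 0.08. The basement membrane chains Col4a1 and Col4a2 averaged 0.97 ± 0.07 and 0.76 ± 0.09 (adjusted p = 3.4e-05 and 0.00040). Fn1, fibronectin, averaged 0.86 ± 0.11 (adjusted p = 0.00061) and Vcan, versican, a substrate of Adamts1 and Adamts9, averaged 0.63 ± 0.14 (adjusted p = 0.0093). In the average, smooth muscle markers were higher, as were Timp1 and Adamts1: 8 of 9 were called higher, with averages of 2.02 for Des and 1.76 for Actg2. The list median was 1.38 to 1.95 on cobalt arrays and 0.76 to 1.23 on saline arrays. The median cobalt minus saline difference of these markers was 0.62, whereas Timp1 had -0.65 and Adamts1 -0.48, neither of which passed. The part of smooth muscle markers in the ratios of Timp1, Adamts1 and the matrix genes was not tested. Of 9 fibroblast markers 1 was lower, Fbln1 (-0.53), and 0 were higher.

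Of 20 membrane proteins shed by ADAMs, 1 was higher and 3 were lower, with a median of -0.12. Tnfrsf1a, a TNF receptor shed by Adam17, averaged 0.58 ± 0.08 (adjusted p = 0.0010), whereas Fcer2, the low-affinity IgE receptor shed by Adam10, averaged -0.98 ± 0.11 (adjusted p = 0.00027). Cdh5, the endothelial cadherin, averaged -0.19 ± 0.06 (adjusted p = 0.047).

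Of 19 inducers and transcription factors of MMP genes, 4 were higher and 6 lower, with a median of 0.03. Epas1, the HIF-2 alpha subunit, averaged -1.09 ± 0.07 (adjusted p = 1.8e-05), and the cytokine gene Il1a -0.45 ± 0.07 (adjusted p = 0.0012). The AP-1 subunits were split: Junb averaged 0.74 ± 0.12 (adjusted p = 0.0020), with 1.70, 1.41, 1.63 and 1.07 on cobalt arrays and 0.54, 0.17, 0.04 and -0.67 on saline arrays, and Jund averaged -0.54 ± 0.09 (adjusted p = 0.0021). For 8 of the 19 the cobalt minus saline difference was higher and for 1 lower, against 12.7% and 17.4% of all genes, Junb and Jund being among the 8.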

How the data were processed

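Total RNA of rat lung was labelled by linear amplification and hybridized to 8 two-colour arrays of 60-base probes, with 1 array per pretreatment and duration. Per the file headers, the authors extracted the scanner files with Agilent Feature Extraction 9.5.1.1. The deposited intensity of each spot is, per the file headers, the mean of its pixels in scanner units, with a local background beside it. Per the file headers, the deposited log10 ratio is red over green, corrected for background and dye by that software. Values in the series matrix that the authors deposited were found, by comparison with the scanner values, to be log2 ratios with hypoxia on top.

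Mean signals were background-corrected (normexp, offset 50) and then normalized within each array by loess, with limma 3.58.1 under R 4.3.3 (data.table in version 1.17.8). Spots marked as outliers (128 to 214 per array) were dropped. Probes had to be marked as well above background, in green or red, on 4 or more of the 8 arrays, and the brightest probe stood for a gene. Members were chosen by the name in the file: 2 probes that a synonym in the RefSeq table would have named Adam8 kept their own name. Levels of different probes are not compared.

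With a variance trend over mean intensity, limma tested the average response, each pretreatment, cobalt minus saline, late minus early and any difference between durations; an adjusted p under 0.05 was called. The code was tested on simulated data. Every measured MMP and TIMP gene is named with all its values, as are ADAM, ADAMTS and ADAMTS-like genes that were called or among the 3 brightest of their family, and up to 4 called genes of each other list, except some that are not reported here. Adamts5, S100a8 and S100a9 were given outside this rule, after their values were seen. Members, lists and rules were chosen with earlier results of these data known. As alternatives, the results were computed again, where the setting gave a value, without background subtraction, with the software's log ratio, with median centring, with log ratios scaled between arrays, from the series matrix, without a filter, with a filter on both channels of all 8 arrays, from the mean of a gene's probes, with outlier spots, without the variance trend, with duration in the model (not for the duration comparisons), and without each array in turn.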

Additional observations from a re-analysis of the deposited data

Results flagged for a closer look

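Cobalt and saline rats differed in the response of 12 genes by the limma test of the difference itself (cobalt minus saline, log2). The difference was higher in cobalt rats for Mmp14 (2.21, with 1.01 in cobalt rats and -1.20 in saline rats), Adam17 (1.21, with 0.27 in cobalt rats and -0.94 in saline rats), Adamts14 (0.95), Adam10 (0.61), Mmp17 (0.59), Mmp28 (0.41) and Adamts17 (0.24). It was lower in cobalt rats for Adam28 (-0.88), Mmp23 (-0.86), Adamts19 (-0.73), Adam9 (-0.60) and Adam8 (-0.43). For Adam28 and Adamts19 the green signal was well above background on 0 and 1 of 8 arrays. Their values are thus fitted and no measured sizes. Adamts17 was dim, with no measured size in saline rats. Pretreatment, slide, scan and dye orientation cannot be told apart in these 12 values.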

How the results depend on the processing

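Of the 18 average calls, 11 held in every alternative and without any single array (Timp1, Adamts1, Mmp23, Adamts9, Adam15, Mmp28, Adamts13, Mmp16, Adamtsl4, Adam17 and Adamts14), and of the 12 differences 4 did (Adam28, Adamts14, Adamts19 and Mmp17) wherever a value could be had; the filter on both channels left out all of these but Adamts14. With median centring, the medians of all genes were -0.49 in cobalt and 0.28 in saline rats, and the share called higher was 25.3% in cobalt (41.0% with loess), 84.1% in saline (54.3%) and 21.5% in the difference (42.2%). Member calls with median centring numbered 28 in cobalt rats, against 13, and 34 for cobalt minus saline, against 12; over all genes they numbered 19420, against 5026, and 19060, against 7267. The same setting turned the Adamts15 average to 0.22 and these differences: Adam10 -1.33, Adam15 -2.13, Adam17 -0.34, Adam33 -1.44, Adam7 0.36, Adamts13 -0.53, Adamts15 0.36, Adamts5 -0.75, Adamts7 -0.98, Adamts8 -0.88, Adamtsl4 -0.55, Adamtsl5 -1.08, Mmp16 -1.45, Mmp2 -1.62 and Timp2 -2.44. The cause was not tested. Sizes of averages depended on the setting too. Across the alternatives that kept every array, Adamts1 ran from 1.28 to 1.96, Timp1 from 1.67 to 1.70 and Adamts13 from -1.58 to -0.91. The order of Timp1 and Adamts1 was thus not fixed. Leaving out each array gave 13 to 18 average, 15 to 20 saline, 8 to 16 cobalt and 8 to 13 difference calls, and 0 for durations. Duration as a factor, which pairs the arrays of a duration, gave 17 average and 14 difference calls and ended the Adam10 and Mmp9 average calls. Signals near background leave no measured size for Adam28 and Adamts19, nor for Adamts17 in saline rats. The Mmp17 signal was also dim, and the size of its difference ran from 0.59 to 2.9 across the alternatives. No alternative changed the dye orientation. The signs of all 7 members with opposite signs followed it: Mmp14, Mmp17, Adam10, Adam17, Adam28, Adamts14 and Adamts19.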
